A study of Mus musculus with 12 samples.

Results

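The Cyp2c epoxygenase family holds cytochrome P450 enzymes of the endoplasmic reticulum whose mouse genes lie on chromosome 19, most of them in 1 cluster. Its members here were 10 genes chosen by name (Cyp2c29, Cyp2c37, Cyp2c38, Cyp2c40, Cyp2c50, Cyp2c54, Cyp2c55, Cyp2c67, Cyp2c69 and Cyp2c70), and 9 of the 10 had a transcript in the deposited protein-coding table. Cyp2c69 was not listed there. The level of a gene was the sum of the FPKM of its listed transcripts, FPKM being a fragment count scaled to transcript length and to sequencing depth.

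Livers came from 12 mice with hepatic fibrosis brought on by intraperitoneal carbon tetrachloride, 6 given Pien Tze Huang (PZH) and 6 controls. Per the labels the strain was C57BL/8, where the methods name C57BL/6J males, and the chemical was injected 2 times a week. PZH, or double distilled water in the controls, was given daily by gavage. Every sequenced mouse had been given carbon tetrachloride, with no uninjured mice beside them. Here rose and fell therefore mean higher and lower in PZH mice than in injured controls. Whether a difference was a gain under PZH or a smaller loss to injury was not tested. The methods put the mice at 6 weeks of age at the start, PZH at 0.25 mg per g of body weight, the carbon tetrachloride mixture at 10 µl per g, and death at week 8.

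Cyp2c enzymes oxidise arachidonic acid to epoxyeicosatrienoic acids and hydroxyeicosatetraenoic acids, the mix of products differing from one paralog to the next. The epoxides act on vascular tone and inflammation and are hydrolysed to diols, chiefly by the soluble epoxide hydrolase encoded by Ephx2. The same enzymes also oxidise drugs and steroids, and several of their genes respond to the nuclear receptors CAR (Nr1i3) and PXR (Nr1i2).

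Of the 9 member genes listed, 8 were called higher in PZH and 0 lower, a call being a limma adjusted p below 0.05 over all 14188 genes. Of all genes 44.8% were called in either direction, 12.7% higher and 32.1% lower. The median log2 fold change (log2 of FPKM plus 1, PZH minus control) was 1.21 over the 9 members and −0.11 over all genes. By a 2-fold rule modelled on that of the study, applied here to the limma fit with unadjusted p below 0.05, 6 of the 9 members were higher against 1.52% of all genes. In 7 of the 9 members every PZH mouse lay above every control mouse, against 6.46% of all genes. Cyp2c40 was the only listed member that was not called.

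Across all genes, median-ratio scaling moved the median log2 fold change from −0.11 to −0.0010 and the calls from 1798 higher and 4560 lower to 2807 higher and 2739 lower. It left 8 of the 9 members called higher, with a member median of 1.40. Scaling each mouse to an equal sum, which gave 1571 genes higher and 4837 lower, also left 8 members called higher, with a median of 1.17, and no member changed direction under either scaling.

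**Figure D1:**
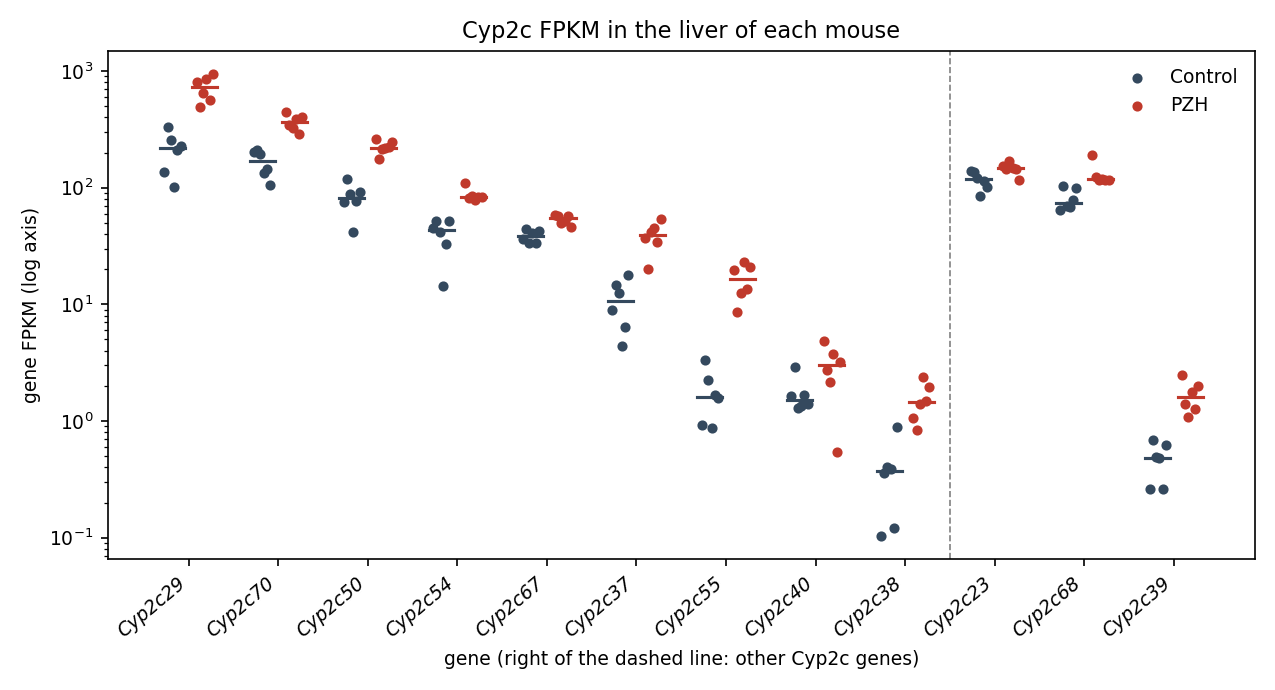
FPKM of each mouse on a log axis for the 9 listed members and, right of the dashed line, for the other Cyp2c genes Cyp2c23, Cyp2c68 and Cyp2c39, with control mice in dark blue, PZH mice in red and short lines at the medians. Cyp2c40 is the member whose groups overlap most.

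Cyp2c29, an arachidonic acid epoxygenase and a gene that CAR activators induce, was the most abundant member. Its FPKM ran from 102 through a median of 220 to 334 in controls and from 496 through 732 to 945 in PZH mice. No PZH mouse reached down to the control range, with control 2 the highest control and PZH 2 the lowest treated mouse. Cyp2c29 rose by 1.82 on the log2 scale (SE 0.26, adjusted p = 0.000165), from a mean of 212 ± 83.8 (SD) to 719 ± 176. Its exact permutation p was 0.0022, the smallest that relabelling the mice can give.

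Cyp2c55, a paralog also known from the colon and strongly induced by activators of CAR and PXR, had the largest fold change in the family. Control mice ran from 0.869 through 1.62 to 3.37 FPKM, and PZH mice from 8.59 through 16.7 to 22.9. The groups were wide apart, the lowest treated mouse again being PZH 2 and the highest control again control 2. Cyp2c55 rose by 2.64 (SE 0.25, adjusted p = 1.56e-05, exact permutation p = 0.0022), a ratio of means of 9.23.

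Cyp2c50 is an epoxygenase whose transcript is close in sequence to those of Cyp2c37 and Cyp2c54. It ran from 42.1 through 82.1 to 119 FPKM in controls and from 175 through 221 to 260 in PZH mice. Control 4 was the lowest of all and the groups did not overlap. Cyp2c50 rose by 1.48 (SE 0.19, adjusted p = 8.97e-05, exact permutation p = 0.0022), with means of 223 ± 29.0 in PZH and 82.1 ± 25.0 in control.

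Cyp2c37, which mainly hydroxylates arachidonic acid, was measured at a lower level. Its FPKM ran from 4.37 through 10.8 to 18.0 in controls and from 20.2 through 39.6 to 54.4 in PZH mice. The gap was narrow, between control 6 and PZH 2, but all 6 PZH mice lay above it. Cyp2c37 rose by 1.82 (SE 0.30, adjusted p = 0.000434, exact permutation p = 0.0022), a ratio of means of 3.58.

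Cyp2c54 ran from 14.4 through 43.7 to 52.2 FPKM in controls and from 78.7 through 83.8 to 110 in PZH mice. All PZH mice but PZH 1 lay close together, and control 4 was the lowest control. Cyp2c54 rose by 1.21 (SE 0.25, adjusted p = 0.00195, exact permutation p = 0.0022), with means of 87.2 ± 11.6 and 39.7 ± 14.3.

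Because Cyp2c37, Cyp2c50 and Cyp2c54 are 94.8% to 95.8% identical over their aligned transcripts, the split of FPKM among them is uncertain. The sum of Cyp2c37, Cyp2c50 and Cyp2c54 does not depend on that split. It ran from 60.9 through 136 to 185 FPKM in controls and from 277 through 343 to 407 in PZH mice, without overlap. The ratio of its means was 2.63. Of all stretches of 150 bases in their transcripts, 0.299% of those in Cyp2c37, 3.25% in Cyp2c50 and 2.99% in Cyp2c54 also occurred in another Cyp2c transcript.

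Cyp2c70, the mouse enzyme that makes muricholic acids from chenodeoxycholic acid, was the second most abundant member. It ran from 106 through 170 to 211 FPKM in controls and from 288 through 364 to 447 in PZH mice. Here control 6 was the lowest control and PZH 5 the lowest treated mouse, and the groups did not overlap. Cyp2c70 rose by 1.17 (SE 0.17, adjusted p = 0.000174, exact permutation p = 0.0022), from a mean of 165 ± 42.8 to 365 ± 58.6.

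Cyp2c67 changed least among the called members. It ran from 33.4 through 38.4 to 44.5 FPKM in controls and from 46.3 through 54.7 to 58.2 in PZH mice. Each group was tight and the gap between control 2 and PZH 6 was small. Cyp2c67 rose by 0.47 (SE 0.09, adjusted p = 0.00101, exact permutation p = 0.0022), a ratio of means of 1.39 that falls short of the 2-fold rule.

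Cyp2c40, which mainly hydroxylates arachidonic acid near the end of its chain, was a low member. It ran from 1.31 through 1.53 to 2.90 FPKM in controls and from 0.540 through 2.99 to 4.89 in PZH mice. PZH 5 was the lowest of all 12 mice and 3 PZH mice lay above every control. The log2 fold change of Cyp2c40 was 0.43 (SE 0.27, adjusted p = 0.21, exact permutation p = 0.175). Without PZH 5 it was 0.67 with an adjusted p of 0.00761, and Cyp2c40 was then called.

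Transcripts of Cyp2c40, Cyp2c67, the unlisted Cyp2c69 and the further family gene Cyp2c68 are nearly alike, Cyp2c40 and Cyp2c69 being 97.8% identical with a longest shared run of 282 bases. Of the 150-base stretches, 29.1% of those in Cyp2c40, 13.0% in Cyp2c67 and 8.83% in Cyp2c68 recurred in another Cyp2c transcript, so the split among them is uncertain. Summed, Cyp2c40, Cyp2c67 and Cyp2c68 ran from 102 through 112 to 152 FPKM in controls and from 167 through 175 to 255 in PZH mice. These sums did not overlap and the ratio of their means was 1.55.

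Cyp2c38, an epoxygenase close to Cyp2c39, was the least abundant member. It ran from 0.103 through 0.375 to 0.890 FPKM in controls and from 0.840 through 1.45 to 2.37 in PZH mice. The groups overlapped in PZH 2 alone, which lay just under control 6. Cyp2c38 rose by 0.86 (SE 0.16, adjusted p = 0.000822, exact permutation p = 0.0043), though the ratio of means was 4.02. Adding 1 to so low an FPKM shrinks the log2 fold change, which was 1.89 with 0.1 added.

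3 further Cyp2c genes outside the chosen members were listed, and Cyp2c65 and Cyp2c66 were not. Cyp2c39, 93.8% identical to Cyp2c38, ran from 0.262 through 0.486 to 0.691 FPKM in controls and from 1.09 through 1.60 to 2.46 in PZH mice, with no overlap. Cyp2c39 rose by 0.85 (SE 0.12, adjusted p = 0.000186), and by 1.65 with 0.1 added, its level being as low as that of Cyp2c38. Cyp2c68 ran from 64.4 through 74.0 to 104 FPKM in controls and from 116 through 119 to 192 in PZH mice, PZH 1 being the highest. Cyp2c68 rose by 0.69 (SE 0.15, adjusted p = 0.00272).

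Cyp2c23, an epoxygenase gene that lies away from the cluster, ran from 85.2 through 118 to 138 FPKM in controls and from 116 through 146 to 169 in PZH mice. Its groups overlapped, PZH 6 being the lowest treated mouse. Cyp2c23 rose by 0.34 (SE 0.12, adjusted p = 0.0402, exact permutation p = 0.0173). That call was lost without any 1 of PZH 1, PZH 2, PZH 3, PZH 4, PZH 5, control 3, control 4, control 5 or control 6, the adjusted p then running from 0.0517 to 0.0847. It was also lost with 0.1 added (adjusted p = 0.0547) and with equal sums (adjusted p = 0.0696), while with median-ratio scaling Cyp2c23 was at 0.53 (adjusted p = 0.0068).

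**Figure D2:**
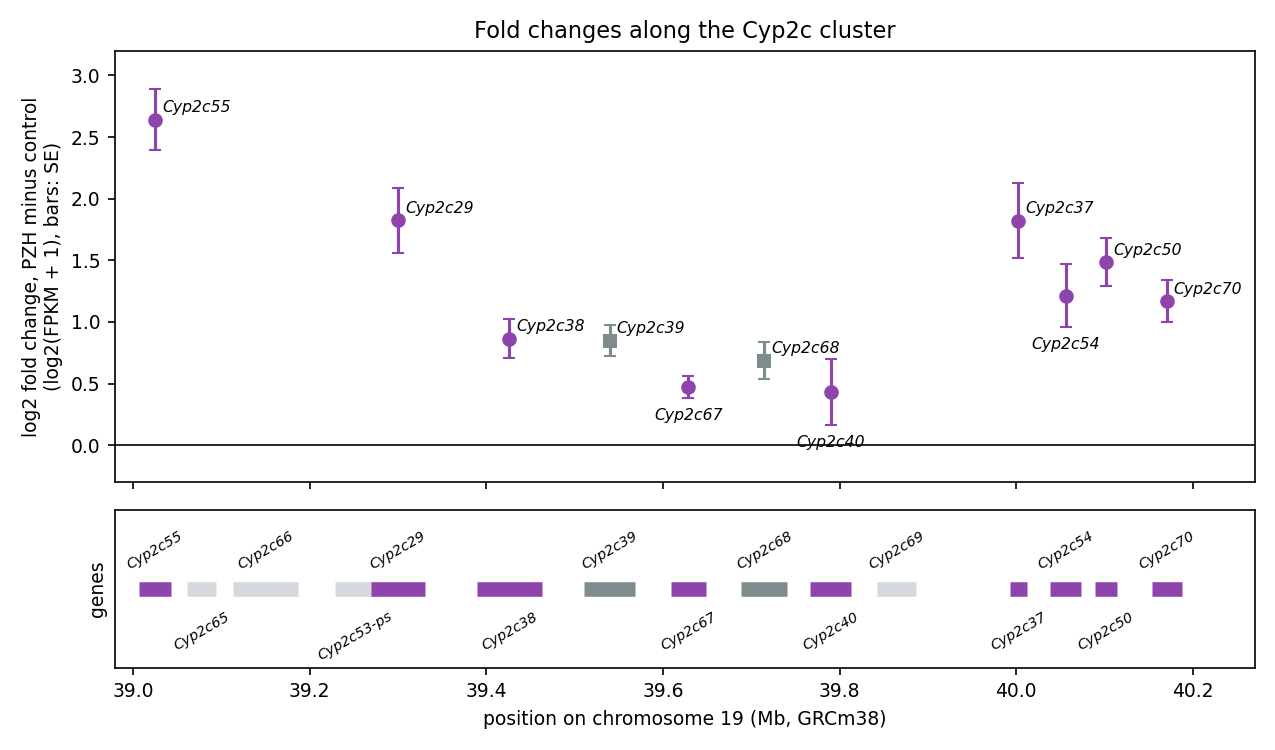
Log2 fold change (PZH minus control) with its SE against position on chromosome 19 in megabases, members as purple circles and other listed genes as grey squares, with gene bars along the bottom and genes not listed pale. All listed Cyp2c genes of the cluster lie above 0, with Cyp2c67 and Cyp2c40 nearest to it.

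In GRCm38 the cluster spans 1180.3 kb, from Cyp2c55 (chr19:39007019-39042693, plus strand) to Cyp2c70 (chr19:40153353-40187286, minus strand). It holds 18 annotated genes, of which 11 were listed. Cyp2c29 lies at chr19:39287074-39330699 and Cyp2c50 at chr19:40089688-40113950, both on the plus strand. Tbc1d12, Hells and Pdlim1, which lie next to the cluster and were added after their values were seen, were not called higher. Tbc1d12 fell, at −0.49 (adjusted p = 0.00154), and Hells was at 0.40 (adjusted p = 0.0613), called only with median-ratio scaling (adjusted p = 0.0329) or without PZH 5 (adjusted p = 0.0193). Pdlim1 was called at −0.35 (adjusted p = 0.0141), a call lost with median-ratio scaling (−0.18, adjusted p = 0.224).

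The summed FPKM of the 9 members ran from 339 through 526 to 781 in controls and from 1185 through 1522 to 1807 in PZH mice. PZH 6 and PZH 1 had the highest sums, PZH 2 the lowest among treated mice and control 4 the lowest of all. The groups did not overlap, the ratio of means was 2.73, and the members made up 0.440 ± 0.0633% of all protein-coding FPKM in PZH mice against 0.166 ± 0.0435% in controls. Within single genes, PZH 2 was the lowest treated mouse for 5 members and PZH 1 the highest for 5, while control 4 was the lowest control for 5 and control 2 the highest for 6.

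**Figure D3:**
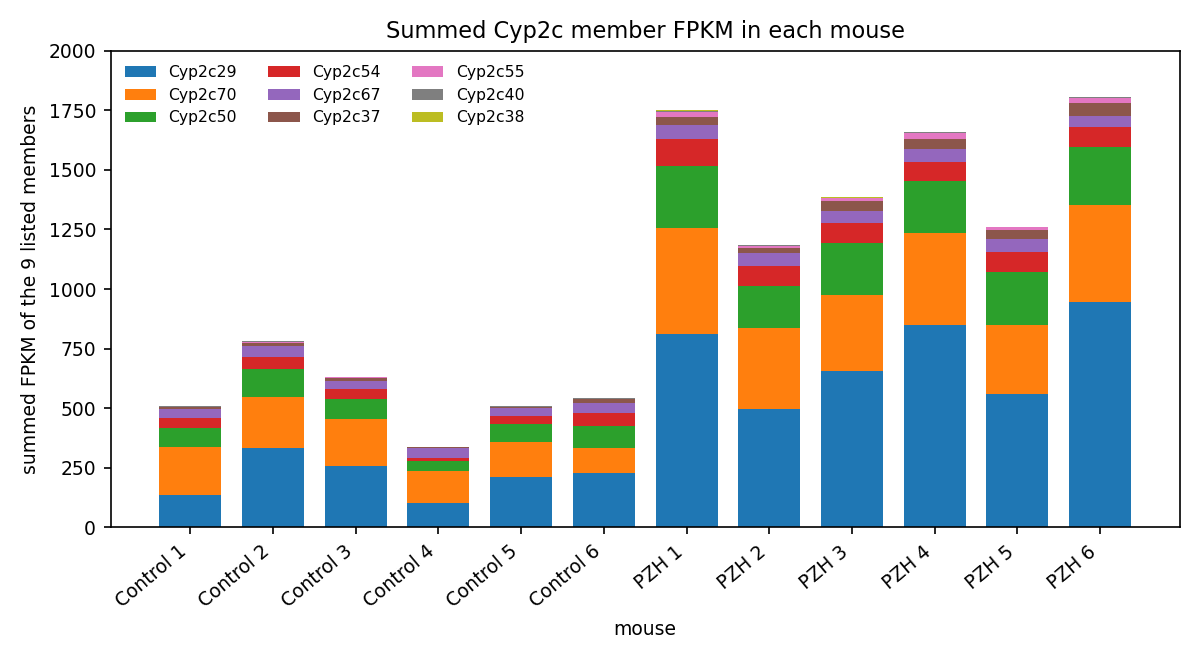
Stacked bars of member FPKM for each mouse, with controls and PZH mice side by side and 1 colour per gene. Cyp2c29, Cyp2c70 and Cyp2c50 make up most of each bar.

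By mean FPKM the order was the same in both groups: Cyp2c29, Cyp2c70, Cyp2c50, Cyp2c54, Cyp2c67, Cyp2c37, Cyp2c55, Cyp2c40 and Cyp2c38. Neighbours in that order were not all apart, since in controls Cyp2c29 exceeded Cyp2c70 in 4 of 6 mice and Cyp2c55 exceeded Cyp2c40 in 3 of 6. The share of Cyp2c29 in the member sum was 47.2 ± 3.96% in PZH mice and 37.4 ± 6.97% in controls, with overlap. The share of Cyp2c67 was 3.67 ± 0.873% in PZH mice and 7.41 ± 2.42% in controls, and that of Cyp2c55 was 1.06 ± 0.223% and 0.307 ± 0.0853%. In both Cyp2c67 and Cyp2c55 the shares did not overlap between the groups.

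Among transcripts, 9 of the 10 of the listed members were called higher, with adjustment over all 29883 transcripts. Of all transcripts 19.7% were called in either direction and 5.73% higher. By the 2-fold rule 7 of the 10 were higher, against 1.24% of all transcripts. Only Cyp2c50 had more than 1 listed transcript. Its 9-exon transcript ENSMUST00000080171 rose by 1.48 (limma adjusted p = 0.000618) and its 8-exon transcript ENSMUST00000068094 by 1.66 (adjusted p = 0.0254). The 8-exon call was lost without PZH 1 (adjusted p = 0.0507), without PZH 4 (0.0559) or without control 4 (0.0535), and the Cyp2c40 transcript was called without PZH 5 (0.0230).

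The 9-exon transcript held 83.3% to 91.2% of Cyp2c50 FPKM in PZH mice and 82.6% to 99.0% in controls. Control 6 stood apart, its 8-exon transcript at 0.906 FPKM being the lowest of all 12 mice. The mean share differed by −0.0515 percentage points (exact permutation p = 0.994), and by 2.30 without control 6.

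After each group mean was taken off, Cyp2c29 and Cyp2c55 varied together over the 12 mice (r = 0.900, a description without a test), as did Cyp2c50 and Cyp2c54 (r = 0.897). Cyp2c29 followed the mean of the other members most closely (r = 0.912), and Cyp2c67 did not follow it (r = −0.0243, n = 12). Among 10937 genes outside the family, Akr1d1, the bile acid pathway reductase, was the one most like the member mean (r = 0.938, n = 12). Akr1d1 rose by 2.09 (SE 0.28, adjusted p = 9.41e-05), from 16.3 ± 6.85 to 68.8 ± 16.8 FPKM. Next came the monoamine oxidase gene Maob (r = 0.926), which rose by 0.72 (adjusted p = 0.00077), and the steroid hydroxylase gene Cyp2a12 (r = 0.910), which rose by 0.49 (adjusted p = 0.00861). Apoa2 (r = 0.909) rose by 0.34 (adjusted p = 0.0242). The Apoa2 call was lost without PZH 4 (adjusted p = 0.0531) or PZH 6 (0.0506), and with a mean-variance trend (0.0571), while with median-ratio scaling Apoa2 was at 0.54 (0.0068).

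Promoters of 8 listed members are shown because they allow the sites of the regulators named here to be read beside the fold changes. Each is the 130 bases before the RefSeq GRCm38.p6 start, on the strand of the gene, with capitals marking TATAAA (read as TTTATA where it lies on the other strand) and the HNF4A core CAAAGTCCA. Cyp2c54, the remaining listed member, had no promoter entry. Counted from 250 bases before the start to 50 after it on both strands, TATAAA occurred in 6 of the 8 members and 13.6% of all 32851 promoters. In Cyp2c40 the TATAAA match lay after the start, from base 40 to base 45, and so outside the stretch shown. CAAAGTCCA occurred in Cyp2c40, Cyp2c67 and Cyp2c70, 3 of the 8, and in 0.475% of all promoters. The matches of Cyp2c40 (from base −45) and Cyp2c67 (from base −125) lie in nearly the same sequence and are not independent. The D-box TTATGTAA of Dbp and Tef was in 0 of the 8 and 0.938% of all promoters. The half-site AGGTCA was in Cyp2c29 and Cyp2c70 (16.3% of all) and AGTTCA in Cyp2c40 and Cyp2c50 (14.0%). A match is a description of sequence and no measure of binding.

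Cyp2c29: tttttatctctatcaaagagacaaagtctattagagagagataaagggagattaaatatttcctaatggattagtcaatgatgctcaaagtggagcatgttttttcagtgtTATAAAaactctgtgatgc
Cyp2c37: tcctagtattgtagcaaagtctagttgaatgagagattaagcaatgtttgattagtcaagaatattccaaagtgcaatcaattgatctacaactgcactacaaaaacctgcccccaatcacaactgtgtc
Cyp2c38: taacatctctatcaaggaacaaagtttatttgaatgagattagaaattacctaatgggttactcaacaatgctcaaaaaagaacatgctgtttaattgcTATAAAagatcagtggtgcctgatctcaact
Cyp2c40: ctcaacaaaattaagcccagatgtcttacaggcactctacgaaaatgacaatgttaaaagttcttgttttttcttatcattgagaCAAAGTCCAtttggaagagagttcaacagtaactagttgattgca
Cyp2c50: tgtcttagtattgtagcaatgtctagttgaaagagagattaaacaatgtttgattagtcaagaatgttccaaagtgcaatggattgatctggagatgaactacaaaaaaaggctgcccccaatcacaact
Cyp2c55: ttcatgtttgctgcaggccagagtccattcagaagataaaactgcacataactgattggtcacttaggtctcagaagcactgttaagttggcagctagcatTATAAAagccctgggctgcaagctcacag
Cyp2c67: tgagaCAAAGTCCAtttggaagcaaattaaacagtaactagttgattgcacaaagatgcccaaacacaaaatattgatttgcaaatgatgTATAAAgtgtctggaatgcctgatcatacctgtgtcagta
Cyp2c70: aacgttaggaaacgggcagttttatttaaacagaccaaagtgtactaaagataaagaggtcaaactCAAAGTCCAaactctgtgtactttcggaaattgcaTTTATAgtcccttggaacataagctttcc

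Cyp2c29 (chr19:39286955-39287084, plus strand), Cyp2c37 (chr19:39992294-39992423, plus), Cyp2c38 (chr19:39463076-39463205, minus) and Cyp2c40 (chr19:39812815-39812944, minus) are the first 4 of these. Cyp2c50 (chr19:40089549-40089678, plus), Cyp2c55 (chr19:39006889-39007018, plus), Cyp2c67 (chr19:39649043-39649172, minus) and Cyp2c70 (chr19:40187287-40187416, minus) are the others.

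For all 10 members, from GENCODE M21 transcripts, a coding stretch of 30 bases is shown. It ends at the codon of the residue binding the haem iron and gives a view of how alike the paralogs are there. Capitals mark that codon. Cyp2c40, Cyp2c67 and Cyp2c69 were identical over the stretch, and Cyp2c55 alone had TGC in place of TGT.

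Cyp2c29: atgcctttttcaacaggaaaacggattTGT
Cyp2c37: attcccttctcaacagggaaacggataTGT
Cyp2c38: atgactttctcagcaggaaaacgggttTGT
Cyp2c40: gtgcctttctcagcaggaaaacggattTGT
Cyp2c50: atgcccttctcaacaggaaaacggataTGT
Cyp2c54: atgccattctcaacagggaaacggataTGT
Cyp2c55: atgcctttctcaataggaaagcgaatgTGC
Cyp2c67: gtgcctttctcagcaggaaaacggattTGT
Cyp2c69: gtgcctttctcagcaggaaaacggattTGT
Cyp2c70: gtggctttctcagcaggaagaagagctTGT

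Other enzymes of the arachidonic acid P450 pathway moved less than Cyp2c29 or Cyp2c55. The list counts that follow stand against 12.7% of all genes called higher and 32.1% lower. With median-ratio scaling the 14188 genes gave 2807 higher and 2739 lower. Of 4 listed Cyp2j epoxygenase genes, Cyp2j6 rose by 0.72 (adjusted p = 0.000138), Cyp2j5 rose by 0.54 (adjusted p = 0.000594) and Cyp2j9 fell, at −0.63 (adjusted p = 0.00478). Of 12 Cyp4 omega-hydroxylase genes 4 were called higher and 3 lower, and their median of −0.10 turned to 0.03 with median-ratio scaling, when 4 were higher and 1 lower. Cyp4f15 rose by 1.35, Cyp4a31 by 1.03 and Cyp4f14 by 1.0, while Cyp4a12a fell, at −1.11 (adjusted p = 0.000732).

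Ephx2, whose product hydrolyses the epoxides, ran from a mean of 104 ± 27.4 FPKM in controls to 147 ± 27.1 in PZH mice. Ephx2 rose by 0.52 (adjusted p = 0.0281), a call lost without PZH 4 (adjusted p = 0.0627), PZH 6 (0.0628), control 1 (0.0561) or control 5 (0.0605). The microsomal hydrolase gene Ephx1 was at 0.21 (adjusted p = 0.2), and at 0.40 (adjusted p = 0.0188) with median-ratio scaling.

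Of 19 listed genes for arachidonic acid release and other eicosanoid enzymes, 4 were called higher and 6 lower. Over all genes 12.7% were called higher and 32.1% lower, so the lower calls were near that share. The list median of −0.06 turned to 0.05 with median-ratio scaling, when 5 were higher and 2 lower. Hpgd, which inactivates prostaglandins, rose by 1.55 (adjusted p = 1.20e-05), Ptgds rose by 0.59 (adjusted p = 0.00383; 2.03 with 0.1 added) and Hpgds rose by 0.58 (adjusted p = 0.000223). Among those called lower, Ptges3, the most abundant gene of the list, fell, at −0.40 (adjusted p = 0.000577), without overlap between the groups. Alox5ap was called at −0.46 (adjusted p = 0.0275). It lost the call with median-ratio scaling (adjusted p = 0.143) and without PZH 2 (0.0569), PZH 4 (0.0632), control 4 (0.0613), control 5 (0.0602) or control 6 (0.0517).

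The redox partners that pass electrons to P450 enzymes were higher beside the Cyp2c genes. Por rose by 0.77 (SE 0.17, adjusted p = 0.00269), from 70.0 ± 12.8 to 122 ± 28.4 FPKM. Cyb5a rose by 0.50 (adjusted p = 0.00409) and Cyb5r3 rose by 0.43 (adjusted p = 0.00265). Of 12 listed genes of redox partners and haem synthesis 5 were called higher and 0 lower, against 7 higher with median-ratio scaling and 4 higher and 1 lower with equal sums. Alas1, which starts haem synthesis, was called at 0.84 (adjusted p = 0.0456). Without any 1 of PZH 1, PZH 2, PZH 3, PZH 4, PZH 5, control 1, control 2, control 3, control 4 or control 5, Alas1 lost its call, with adjusted p from 0.0504 to 0.0997, as it did with 0.1 added (0.0507) and with equal sums (0.0613).

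Of 19 listed regulators of hepatic P450 genes, 10 were called higher and 2 lower, against 12.7% and 32.1% of all genes. With median-ratio scaling 11 were higher and 1 lower. Nr1i3, which encodes CAR, rose by 1.15 (SE 0.26, adjusted p = 0.00278), from a median of 7.51 to 17.9 FPKM with 1 PZH mouse just inside the control range. Nr1i2, which encodes PXR, rose by 0.74 (adjusted p = 0.00102). Their shared partner gene Rxra was at 0.05 (adjusted p = 0.782), and at −0.02 without PZH 5. The clock output genes Dbp and Tef rose by 2.73 (adjusted p = 2.24e-05) and 1.49 (adjusted p = 0.000693). Cebpa rose by 0.55 (adjusted p = 0.00141). Hnf4a was called at −0.30 (adjusted p = 0.00937) and lost the call with median-ratio scaling (−0.11, adjusted p = 0.25).

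Of 16 listed CAR and PXR target genes outside Cyp2c, 9 were called higher and 1 lower, against 12.7% and 32.1% of all genes. With median-ratio scaling 10 were higher and 1 lower. Slco1a4 rose by 2.06 (adjusted p = 0.000413) and Gstm3 rose by 1.69 (adjusted p = 0.000885). Cyp2b10, the usual readout of CAR, rose by 1.14 (adjusted p = 0.0128), and Cyp3a25 rose by 0.78 (adjusted p = 0.0181). Cyp3a11, the usual readout of PXR and the most abundant gene of the list, was at 0.41 (adjusted p = 0.18), and at 0.63 (adjusted p = 0.00572) without PZH 2. Cyp2b13, Cyp3a16 and Cyp3a41a were not listed.

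**Figure D4:**
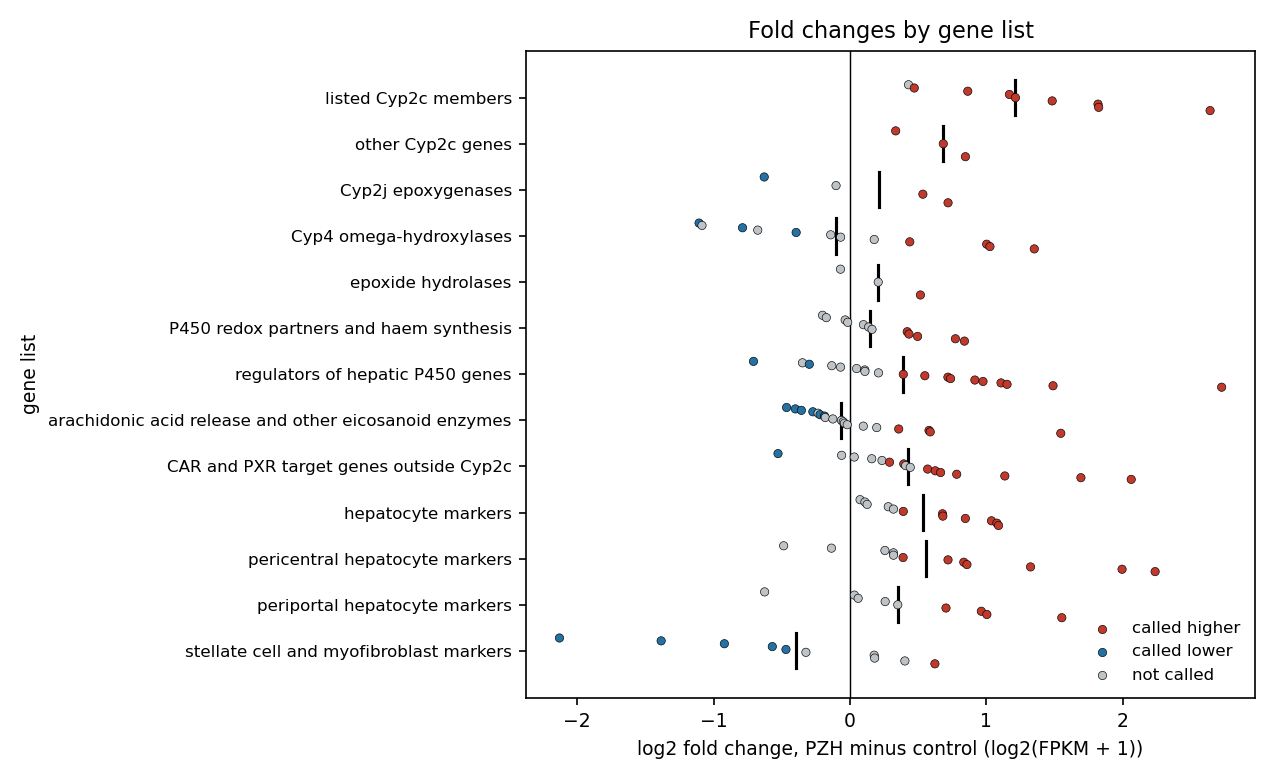
Log2 fold change of each listed gene by gene list, with genes called higher in red, called lower in blue and not called in grey, and black lines at list medians. The member median lies above that of every other list shown.

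Hepatocyte markers were higher in sum in PZH mice, and whether they account for the family's change was not tested. All 12 of 12 were listed, 7 were called higher, 0 lower and 5 not called (11 higher with median-ratio scaling), and Alb was the most abundant. Their summed FPKM ran from 25990 through 33035 to 39928 in controls and from 44368 through 48699 to 61951 in PZH mice. Most of that sum was Alb, at a mean of 38437 FPKM of 51392 in PZH mice and 24059 of 33628 in controls. Alb rose by 0.68 (adjusted p = 0.000697). Relative to Alb, log2 of Cyp2c29 was 1.15 higher in PZH mice, Cyp2c50 0.81, Cyp2c55 2.61 and Cyp2c70 0.49, each without overlap, against 1.18% of all other genes that lay higher without overlap on that scale. The other 5 listed members overlapped relative to Alb: Cyp2c38 at 1.61, Cyp2c37 at 1.25, Cyp2c54 at 0.56, Cyp2c40 at −0.14 and Cyp2c67 at −0.20. In bulk samples fewer cells of a type and less RNA per cell cannot be told apart.

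Pericentral hepatocyte markers, from the zone where many P450 genes are highest, were higher in sum beside the Cyp2c genes, which was not tested as a cause. Of 13 such genes 12 were listed, Slc1a2 being absent, and 7 were called higher and 0 lower (8 higher with median-ratio scaling). Summed, they ran from 363 through 548 to 598 FPKM in controls and from 1126 through 1785 to 2177 in PZH mice. Cyp2e1, the most abundant and the P450 that activates carbon tetrachloride, rose by 2.24 (adjusted p = 1.74e-05), from 206 ± 60.4 to 972 ± 263 FPKM. Cyp1a2 rose by 2.0 (adjusted p = 8.80e-05) and Gulo by 1.32, and 5 of the 12 were not called. Of those, Glul was at 0.32 (adjusted p = 0.114), and was called without PZH 1 (adjusted p = 0.00945) or with median-ratio scaling (adjusted p = 0.0103). Oat was at −0.49 (adjusted p = 0.3) and Lhpp at −0.14 (adjusted p = 0.84), Lhpp turning positive without PZH 3 (0.14), PZH 6 (0.062), control 4 (0.056) or control 6 (0.049). Of 9 periportal markers, 9 listed, 4 were called higher and 0 lower (6 higher with median-ratio scaling), and Ass1, the most abundant, rose by 1.0. Their sums ran from 1694 through 1909 to 2009 in controls and from 1950 through 2235 to 2841 in PZH mice.

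Of 10 stellate cell and myofibroblast markers, 10 listed, 1 was called higher and 5 lower (3 and 5 with median-ratio scaling) beside the higher Cyp2c genes, and the link was not tested. Over all genes 12.7% were called higher and 32.1% lower. Timp1 fell, at −2.13 (adjusted p = 7.17e-06), as did Tagln at −1.38 and Acta2 at −0.92. Col3a1, the most abundant, rose by 0.62 (adjusted p = 0.0146). Their sums ran from 110 through 161 to 183 FPKM in controls and from 112 through 147 to 191 in PZH mice.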

How the data were processed

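Livers of 12 mice were profiled by strand-specific, ribosomal-RNA-depleted paired sequencing with 150-base reads. The authors trimmed reads with Trimmomatic, aligned them to GRCm38 with HISAT2 2.1.0, quantified Ensembl release 95 with StringTie 1.3.5, and deposited FPKM per transcript. Gene FPKM was the sum of the listed protein-coding transcripts (29883 transcripts, 14188 genes, named by GENCODE M21). Log2 of FPKM plus 1 was compared between 6 PZH and 6 control mice with limma 3.58.1 in R 4.3.3, with Benjamini-Hochberg adjustment over all genes or transcripts, and by exact permutation over 924 labellings. The pipeline was tested on simulated data. Summaries used Python 3.11.15, pandas 2.3.3, numpy 2.4.6, scipy 1.17.1, matplotlib 3.10.9 and biopython 1.88.

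The most common small FPKM step would put depth at 26.8 to 42.8 M fragments per mouse, but only 4.66% to 5.51% of low values lay within 0.02 of a whole multiple of that step, little more than a window of that width catches by chance, so neither depth nor counts were recovered. Alternatives were 0.1 added in place of 1, a mean FPKM of at least 1, median-ratio scaling, equal sums, a mean-variance trend, a replicate block, each mouse left out, the 2-fold rule, and the highest transcript alone.

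Genes named were every member, the other listed Cyp2c genes, Por, Cyb5a, Ephx1, Ephx2, Nr1i2, Nr1i3, Rxra, Hnf4a, Cebpa and Alb, the 4 called genes of largest change in each list, the most abundant marker, and the genes outside the family most like the member mean; Tbc1d12, Hells, Pdlim1, Glul, Oat, Lhpp and Cyp3a11 were added after their values were seen. Some genes that this rule takes are not reported here. The members and lists were chosen with earlier results of these data known. The long non-coding RNA file lists no transcript in the cluster.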

Additional observations from a re-analysis of the deposited data

Results flagged for a closer look

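In 20 groups of 6 mice (each listed member in each group, and the Cyp2c50 transcript share in each group) a mouse far from the others was looked for with Dixon's ratio of gap to range, critical at 0.625, and chance alone marks about 1 in 20 groups. The search found 3. Cyp2c40 in control 2, at 2.90 FPKM, stood far above the other controls (gap over range 0.775). Cyp2c54 in PZH 1, at 110 FPKM, stood far above the other PZH mice (0.816). The share of Cyp2c50 FPKM in its 9-exon transcript in control 6, at 99.0%, stood far above the other controls (0.778).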

How the results depend on the processing

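Of 179 alternative values of the 9 member fold changes, 176 kept direction and call and 0 reversed; Cyp2c38 (0.86) and Cyp2c67 (0.47) missed the 2-fold rule, and Cyp2c40 was called without PZH 5. Leaving out each mouse gave log2 fold changes of 1.64 to 1.98 for Cyp2c29, 1.62 to 1.99 for Cyp2c37, 0.77 to 0.96 for Cyp2c38, 0.29 to 0.67 for Cyp2c40, 1.31 to 1.60 for Cyp2c50, 0.96 to 1.31 for Cyp2c54, 2.54 to 2.80 for Cyp2c55, 0.44 to 0.52 for Cyp2c67 and 1.05 to 1.25 for Cyp2c70. It gave 8 to 9 member genes, 8 to 10 member transcripts and 5597 to 6437 genes called. Genes called fell from 6358 to 570 (215 higher, 355 lower) with the 2-fold rule, which adds a fold threshold and drops the p adjustment, the effect of each not being tested apart. A mean FPKM of at least 1 left out Cyp2c38, with 7 of 8 members called.

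The difference in Cyp2c50 transcript share ran from −0.972 to 2.30 percentage points leaving out each mouse, reversing without PZH 1 (0.162), PZH 2 (0.0661), PZH 4 (0.718) or control 6 (2.30). The other 80 named genes were not put through the 2-fold rule or the highest transcript alone, and of their 1438 alternative values 1376 were the same, 42 weaker, 10 stronger and 10 reversed. Reversed were Clec4g with median-ratio scaling (0.16) and without PZH 2, control 1 or control 5 (range −0.077 to 0.048 leaving out each mouse), Eif2s3y (0.13) with median-ratio scaling, Rxra without PZH 5 (range −0.024 to 0.16), and Lhpp without PZH 3, PZH 6, control 4 or control 6 (range −0.37 to 0.14); the cause was not tested.

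With a replicate block by mouse number, 5982 genes were called against 6358, 8 of the 9 member genes and 8 of the 10 member transcripts against 9, the 8-exon transcript of Cyp2c50 losing its call (adjusted p = 0.0575). Alas1 (adjusted p = 0.1) and Apoa2 (0.0554) also lost theirs, Glul was called (0.0247), and no other call of a named gene changed. Correlations of same-numbered mice after removing group means ran from −0.0784 to 0.0929, 0 of 6 over 0.1. They run over many genes at once, so they cannot exclude a pairing that acts on some genes only.

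FPKM without counts gives no counting error, which limits low genes such as Cyp2c38 and Cyp2c40 most.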

Other observations

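Of 11 macrophage markers, 11 listed, 4 were called higher and 2 lower (7 and 1 with median-ratio scaling), beside the higher Cyp2c genes, and the link was not tested. Over all genes 12.7% were called higher and 32.1% lower. Marco fell, at −2.21 (adjusted p = 0.000702), Trem2 rose by 0.64, Vsig4 by 0.57 and Clec4f by 0.60, the last losing its call without PZH 3 (0.50, adjusted p = 0.0548). Lyz2 was the most abundant. Their sums ran from 514 through 538 to 654 FPKM in controls and from 508 through 621 to 758 in PZH mice.

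Of 8 endothelial markers, 8 listed, 0 were called higher and 2 lower, against 12.7% and 32.1% of all genes. With median-ratio scaling 2 were higher and 1 lower, and the median of −0.08 turned to 0.09. Lyve1 fell, at −0.62 (adjusted p = 0.000634), and Pecam1, at −0.29, lost its call with that scaling (−0.12, adjusted p = 0.202). Clec4g, the most abundant, was at −0.02 and turned to 0.16 with median-ratio scaling. The sums ran from 105 through 108 to 118 FPKM in controls and from 93.7 through 102 to 118 in PZH mice. Of 7 cholangiocyte markers 6 were listed, Cftr being absent, with 0 called higher and 1 lower (1 and 1 with median-ratio scaling), and a median of −0.04 that turned to 0.05 with median-ratio scaling. Sox9 fell, at −1.64 (adjusted p = 5.15e-06), and Spp1, the most abundant, was at −0.39 (adjusted p = 0.116). The sums ran from 102 through 145 to 166 FPKM in controls and from 71.6 through 107 to 140 in PZH mice.

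Of 11 lymphocyte and neutrophil markers, 11 listed, 0 were called (1 higher with median-ratio scaling), and the median of −0.02 turned to 0.02 with median-ratio scaling. S100a8, the most abundant, was at −0.31, and at −0.89 (adjusted p = 0.0492) without PZH 3. The sums ran from 19.2 through 26.4 to 64.7 FPKM in controls and from 14.9 through 21.7 to 132 in PZH mice. Of 8 enterocyte and kidney markers 2 were listed and 0 called, Lct, Alpi, Umod, Slc12a1, Kap and Slc34a1 being absent and Fabp2 the most abundant, with sums from 15.1 through 18.4 to 28.1 FPKM in controls and from 14.5 through 21.9 to 29.5 in PZH mice.

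Of 6 cell cycle genes, 6 listed, 5 were called higher and 0 lower (6 higher with median-ratio scaling), and Mki67 rose by 1.29 (adjusted p = 1.56e-05), or 2.07 with 0.1 added. Mcm2, the most abundant, was at 0.25, and was called with median-ratio scaling (adjusted p = 0.0388) or without PZH 5 (adjusted p = 0.0349). Of 4 Y-linked genes, 4 listed, Uty rose by 0.35 (adjusted p = 0.00262), and Eif2s3y, the most abundant, was at −0.05 and turned to 0.13 with median-ratio scaling.

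The splits of FPKM among near-identical Cyp2c paralogs are uncertain, the unlisted Cyp2c69 is nearly identical to Cyp2c40 and Cyp2c67, and RNA level is no measure of enzyme or of epoxide.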
